A study of Mus musculus with 10 samples.

Results

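The 46 kinesin genes described here encode the motors and accessory chains of the kinesin superfamily in a mouse melanoma line and its liver-passaged subline. They are the protein-coding genes with a GENCODE M21 symbol of the form Kif plus a number, Kifc, Kifap3 or Klc, among 21897 protein-coding genes and 55385 gene identifiers in the tables. By the known role of their products they were divided into 12 mitotic kinesins and 34 others. The rule uses symbols and roles rather than measured values, but it was chosen with earlier results of these data known. WT31 is an NRAS-mutant melanoma line derived from Tyr::NrasQ61K/°; INK4a-/- mice, in which the tyrosinase promoter drives mutant NRAS in melanocytes. WT31_P5IV was derived from WT31 in C57Bl/6 mice, in which cells given into a vein were passaged through the liver 5 times. Both groups carry the NRAS transgene and the INK4a deletion, received no drug and were harvested as sub-confluent cultures, so the RNA came from cultured cells and not from metastases. Each group had 5 libraries that the labels call biological replicates, and nothing in the labels says that they came from separately derived sublines. All libraries of WT31_P5IV stand for the same passaged subline, so p-values measure the spread between these cultures.

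Kinesins are motor proteins that burn ATP to walk along microtubules or to shorten them. During cell division they separate centrosomes, align and segregate chromosomes and build the midzone for cytokinesis. Between divisions other kinesins carry vesicles, organelles, RNA and ciliary cargo, mostly outwards to microtubule plus ends. In pigment cells they move melanosomes and their precursors to the cell periphery, against the inward pull of dynein.

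RNA sequencing gave 24255389 to 25750639 estimated counts per library. Melanocyte markers were abundant in both groups, with summed levels of 17046 to 18443 CPM, that is counts per library total scaled by TMM, in WT31 and 22228 to 25729.5 CPM in WT31_P5IV. The 5 hepatocyte markers together stayed at or below 1.18 CPM and the 5 endothelial markers at or below 0.421 CPM in every library. The 5 macrophage and leukocyte markers summed to 0.757 to 2.18 CPM in WT31 and 3.38 to 5.00 CPM in WT31_P5IV, with Clec4f at 0 throughout. Nearly all of this was Cd68, a lysosomal protein, which was higher in WT31_P5IV (1.37 ± 0.455 CPM in WT31 against 3.73 ± 0.638 CPM in WT31_P5IV, log2 fold change of 1.45 ± 0.20, adjusted p = 1.16e-05), while Ptprc, Adgre1 and Csf1r had at most 5 counts in any library. The 5 stellate cell and fibroblast markers summed to 1.07 to 1.53 and 1.49 to 1.76 CPM, with Acta2, smooth muscle actin, higher at a low level (0.275 ± 0.164 CPM in WT31 against 0.758 ± 0.0939 CPM in WT31_P5IV, log2 fold change of 1.47 ± 0.32, adjusted p = 9.69e-04). Of the 4 neuronal markers, summing to 473 to 592 and 346 to 388 CPM, nearly all came from Tubb3 (mean 531 and 366 CPM). On the second principal component of all tested genes, which held 6.18% of the variance, replicates 2 and 3 of WT31 stood on the side opposite to replicates 4 and 5. The same 2 libraries had the highest WT31 level of many kinesins, so results are also given without them.

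Mitotic and other kinesins differed in the direction of the called changes. Of the 12 mitotic kinesins 6 were higher in WT31_P5IV and 0 were lower, whereas of the 24 other kinesins that could be tested 14 were lower and 3 were higher. The 0 depends on the division, since Kif2a, which also acts at spindle poles, was counted among the others. It was called lower (log2 fold change of -0.37). A gene was called at an adjusted p below 0.05 in edgeR's quasi-likelihood test over 13620 genes. Most genes differed between these cultures, since 34.6% of all tested genes were called higher and 33.9% lower. The mitotic share called higher was 50.0% and the share of the others called lower was 58.3%, and both are to be read against those values. In bulk RNA a changed number of dividing cells and a changed amount of RNA per cell cannot be told apart. The median log2 fold change was 0.10 for mitotic kinesins and -0.23 for the others, beside 0.010 for all tested genes. In edgeR's test only Kif26a and Klc3 also reached an absolute log2 fold change of 1, that is 2 of 36 tested kinesins, beside 9.19% of all tested genes. Without any overlap between the libraries of both groups, 4 mitotic and 3 other kinesins were higher and 0 mitotic and 12 other kinesins were lower. Among all tested genes 26.6% did not overlap with WT31_P5IV higher and 27.5% with WT31_P5IV lower.

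The split between both classes depended little on scaling for the lower genes and more for the mitotic ones. Called lower were 14 or 15 of the other kinesins under every other scaling, filter and test, and 13 without WT31 replicates 2 and 3. The number of mitotic kinesins called higher was 3 when all genes with at least 1 count were tested, and also 3 on log2(TPM + 0.1), where TPM are kallisto's transcript shares corrected for transcript length. With these settings 4718 of 31234 and 2891 of 13620 genes in all were called higher. On that scale the median of all tested genes itself lay at -0.14, the mitotic median at -0.026 and the median of the others at -0.35. On log2(TPM + 1) 1 mitotic kinesin, Kif4, was called lower. Without WT31 replicates 2 and 3, 8 mitotic kinesins were called higher. Kifc1 and Kif22 were called higher under every alternative. Mitochondrially encoded genes took 6.2 to 7.18% of the counts in WT31 and 10.8 to 12.9% in WT31_P5IV, and without them in the scaling 4 mitotic kinesins were called higher and 14 others lower.

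**Figure D1:**
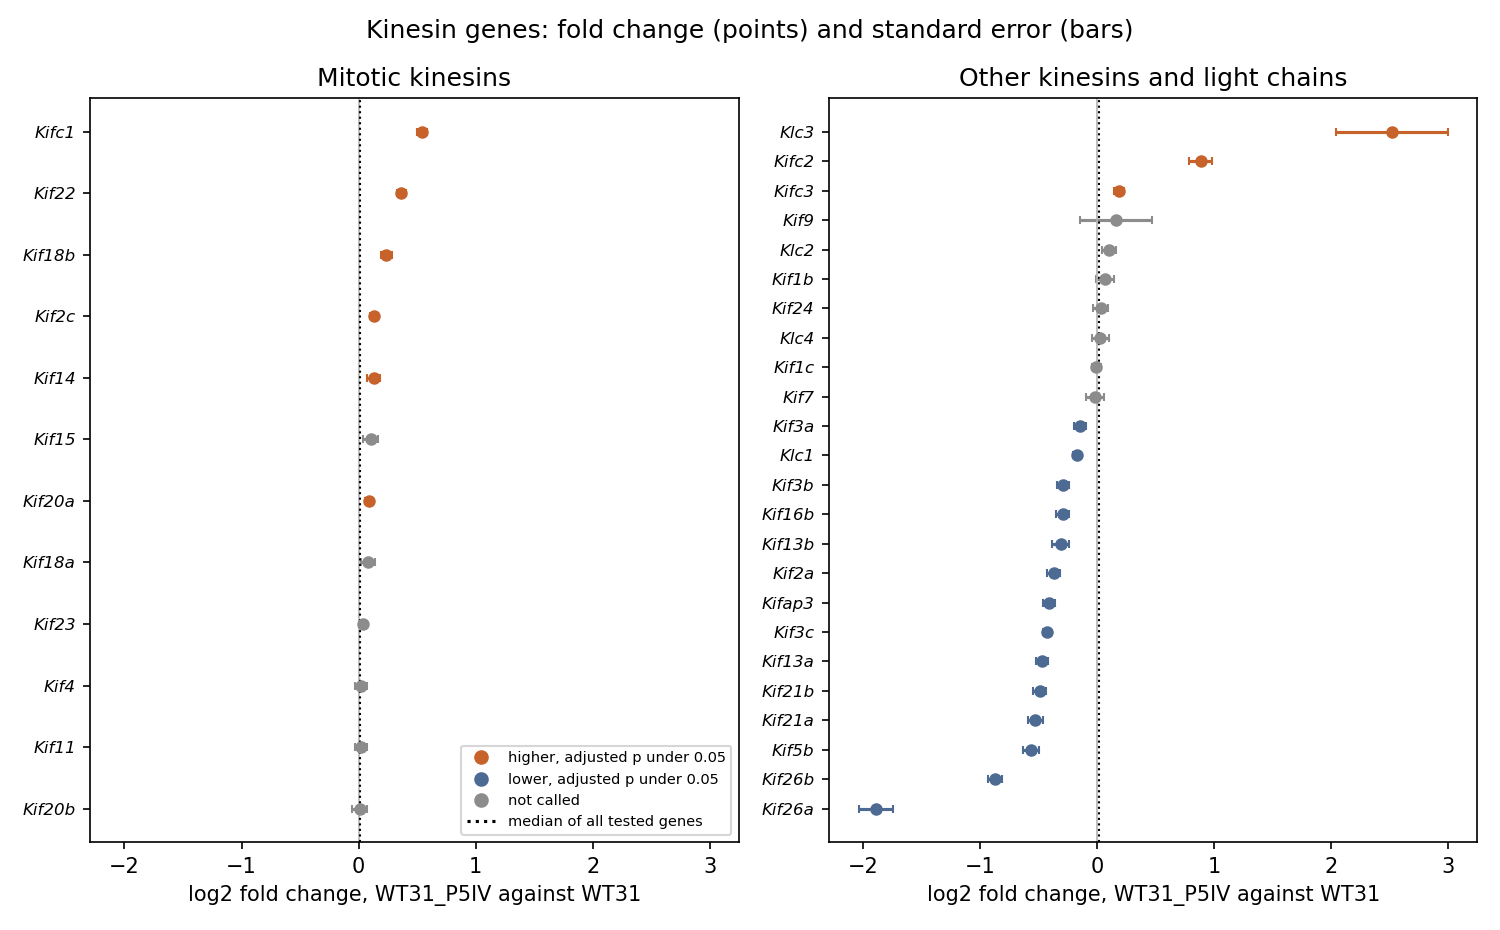
Log2 fold change of WT31_P5IV against WT31 (x axis) for the 12 mitotic kinesins (left) and the 24 other tested kinesins and light chains (right), with standard errors as bars and the median of all tested genes as a dotted line. Mitotic kinesins lie at or right of 0, from 0.0081 to 0.54, while the 14 others called lower lie left of it.

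Kifc1 had the largest increase of the mitotic kinesins. It encodes the minus-end directed kinesin-14 that bundles spindle microtubules and clusters extra centrosomes (ENSMUSG00000079553, GRCm38 chr17:33875659-33890661, reverse strand). Its level was 78.3, 74.7, 74.4, 81.9 and 83.2 CPM in WT31 replicates 1 to 5 and 118, 118, 113, 111 and 111 CPM in WT31_P5IV replicates 1 to 5. Every WT31_P5IV library exceeded every WT31 library (log2 fold change of 0.54 ± 0.041 (SE), adjusted p = 2.85e-08). Of the 31-base words in its transcripts 57.2% also occur in other genes, most of them in the copy Kifc5b on the same chromosome, so reads of both cannot be fully told apart. Kifc5b, whose symbol lies outside the rule, was 19.1 ± 1.64 CPM in WT31 against 29.7 ± 0.856 CPM in WT31_P5IV (log2 fold change of 0.64 ± 0.056 (SE), adjusted p = 1.24e-07).

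Kif22, a chromosome arm motor that pushes chromosomes to the spindle equator, was next (ENSMUSG00000030677, GRCm38 chr7:127027729-127042471, reverse strand). It measured 77.1, 74.0, 72.6, 76.7 and 78.2 CPM in the WT31 libraries and 96.1, 103, 101, 96.3 and 90.8 CPM in those of WT31_P5IV. The ranges were well apart (log2 fold change of 0.37 ± 0.041 (SE), adjusted p = 1.73e-06). Kif18b, a kinesin-8 that shortens astral microtubules, measured 71.9, 67.0, 71.1, 76.7 and 79.0 CPM in WT31, with 88.4, 84.8, 83.2, 91.4 and 82.8 CPM in WT31_P5IV. The groups of Kif18b were separated by less than the range within each (log2 fold change of 0.24 ± 0.048 (SE), adjusted p = 4.79e-04), and on log2(TPM + 0.1) the call was lost (0.064, adjusted p = 0.224).

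Kif2c encodes the depolymerising kinesin-13 MCAK, which corrects faulty kinetochore attachments. Its level was 80.9, 80.6, 76.3, 80.8 and 76.8 CPM in WT31, with 86.3, 88.9, 89.3, 86.0 and 83.5 CPM in WT31_P5IV. The groups did not overlap, but the difference was small (log2 fold change of 0.13 ± 0.035 (SE), adjusted p = 0.00345) and on log2(TPM + 0.1) it was -0.0011 with an adjusted p of 0.981. Kif2c also lost its call in limma voom without scaling or filter (0.064, adjusted p = 0.216) and with all genes of at least 1 count (0.079, adjusted p = 0.194). Kif14, which works with citron kinase in cytokinesis, ranged over 32.99 to 41.0 CPM in WT31, against 39.5 to 42.5 CPM in WT31_P5IV (log2 fold change of 0.13 ± 0.055, adjusted p = 0.0478). Kif20a, a cytokinesis motor that brings the chromosomal passenger complex to the midzone, ranged over 185 to 195 CPM in WT31, against 186 to 207 CPM in WT31_P5IV (log2 fold change of 0.088 ± 0.037, adjusted p = 0.0454). Of the words of Kif20a 26.7% occur in Cdc23, a subunit of the anaphase-promoting complex, which was lower (log2 fold change of -0.12 ± 0.033, adjusted p = 0.00577). The groups of both kinesins overlapped and both calls lay near the threshold. On log2(TPM + 0.1) both were lost and both directions turned (Kif14 -0.051, adjusted p = 0.681, and Kif20a -0.076, adjusted p = 0.0862). Kif20a lost its call without any of 9 of the 10 libraries (all but WT31_P5IV replicate 5) and with the replicate number as a block (adjusted p = 0.0751), in limma voom without scaling or filter (0.017, adjusted p = 0.697), with all genes of at least 1 count (0.033, adjusted p = 0.597) and without mitochondrially encoded genes (0.079, adjusted p = 0.0676). Kif14 lost it without any of 8 of them (all but WT31 replicates 2 and 3), and also in DESeq2 (0.12, adjusted p = 0.0667), in limma voom without scaling or filter (0.065, adjusted p = 0.497), with all genes of at least 1 count (0.075, adjusted p = 0.317) and without mitochondrially encoded genes (0.12, adjusted p = 0.0649).

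For the remaining 6 mitotic kinesins the groups overlapped and edgeR's test was not passed. Kif11, the kinesin-5 that drives centrosomes apart, measured 159.8 ± 12.9 CPM in WT31 against 162 ± 4.02 CPM in WT31_P5IV (log2 fold change of 0.019 ± 0.049, adjusted p = 0.754). Kif23, the motor of centralspindlin, measured 100.3 ± 3.65 CPM in WT31 against 103 ± 2.94 CPM in WT31_P5IV (log2 fold change of 0.039 ± 0.037, adjusted p = 0.351). These are the main motors of the bipolar spindle and of the midbody, and their values differed by less than the spread between libraries. Kif4, the chromokinesin that limits midzone length, gave a log2 fold change of 0.020 ± 0.048, adjusted p = 0.733. Kif18a, which dampens chromosome oscillations, gave a log2 fold change of 0.078 ± 0.058, adjusted p = 0.247. Kif15, a spindle motor that can act beside Kif11, gave a log2 fold change of 0.10 ± 0.061, adjusted p = 0.151, but was called higher on log2(TPM + 0.1) (0.22, adjusted p = 0.0415) and log2(TPM + 1) (0.22, adjusted p = 0.0333) and without WT31 replicate 2 (0.14, adjusted p = 0.0356). Kif20b, a further cytokinesis motor, gave a log2 fold change of 0.0081 ± 0.062, adjusted p = 0.917. In WT31, Kif11, Kif14, Kif15 and Kif20b were highest in replicate 2 and lowest in replicate 5. Without replicates 2 and 3 of WT31, Kif11, Kif15 and Kif20b were also called higher, at 0.086 (adjusted p = 0.0399), 0.20 (adjusted p = 3.47e-04) and 0.11 (adjusted p = 0.0298). Kif20a was then no longer called, at 0.065 (adjusted p = 0.163).

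**Figure D2:**
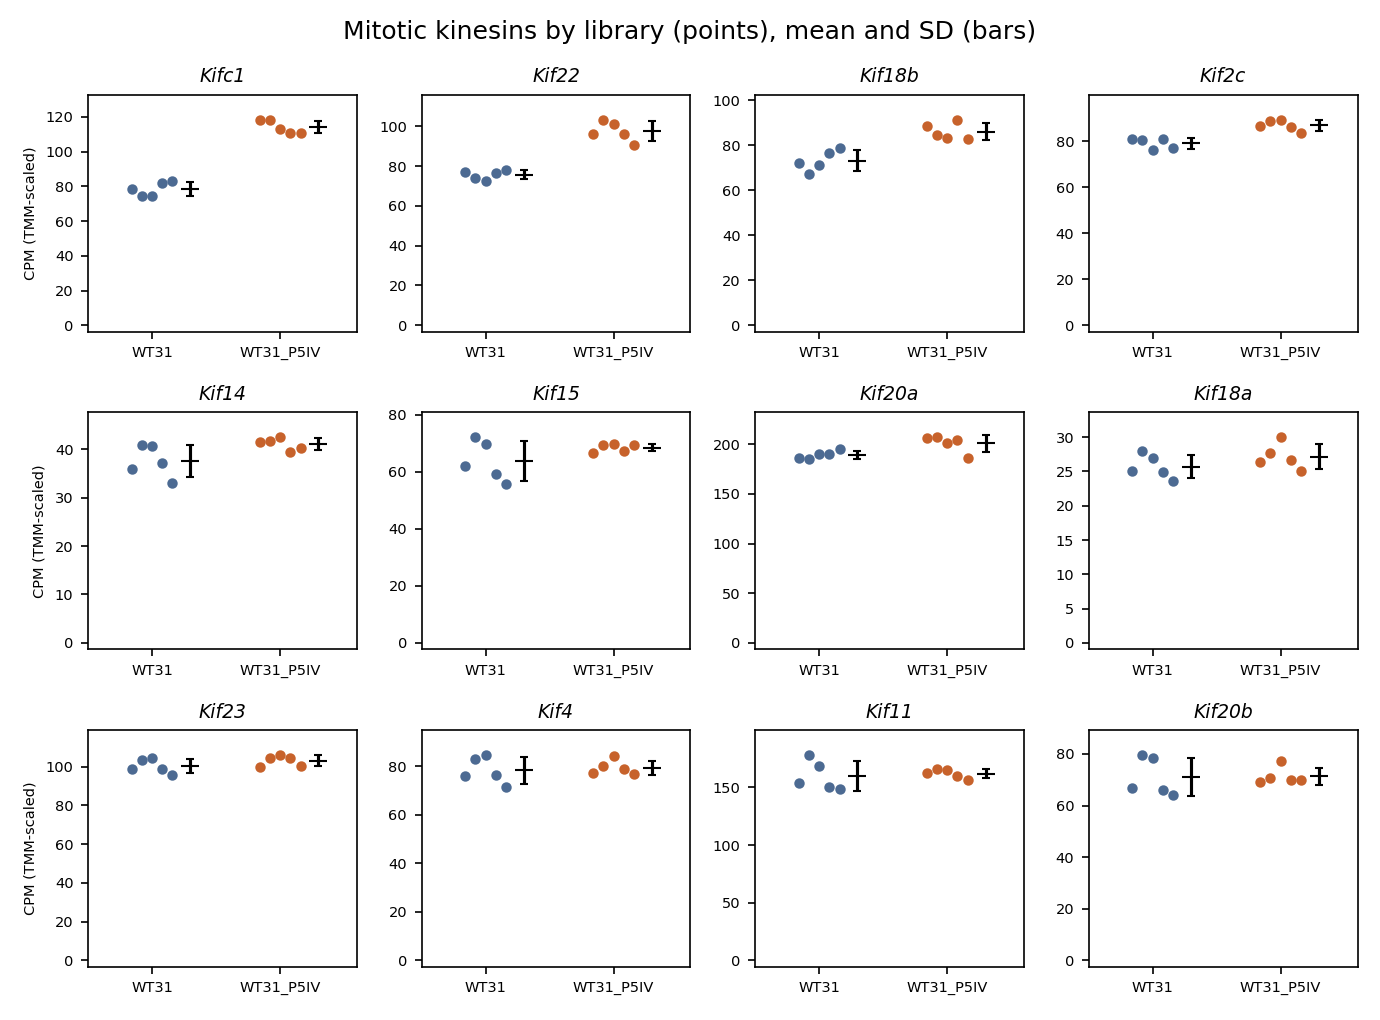
CPM scaled by TMM (y axis, from 0) of each mitotic kinesin in the 5 WT31 and 5 WT31_P5IV libraries, with the mean and SD beside the points. Kifc1, Kif22, Kif18b and Kif2c show groups that do not overlap, and in the other 8 panels the points overlap.

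Many genes of the late cell cycle share the cell cycle genes homology region (CHR), bound by DREAM and MuvB complexes, and CCAAT boxes bound by NF-Y. RefSeq promoters (GRCm38.p6, 250 bases before to 50 after the start of transcription) were at hand for 36 of the 46 kinesins, among them 11 of the mitotic ones, and both motifs were looked for in them. The CHR letters TTTGAA or TTCGAA on either strand were in 10 of 11 mitotic kinesins, in 4 of 25 others and in 16.9% of all protein-coding promoters of this length. CCAAT on either strand was in 7 of 11 mitotic kinesins, in 11 of 25 others and in 37.8% of all. Both motifs stood together in 7 of 11 mitotic kinesins and 6.86% of all. The letters do not overlap each other, and a match is only a match of letters. Among mitotic kinesins the promoter of Kif18a held no CHR letters. Kif11, Kif23 and Kif4, which were not called, held both motifs. Kif15 and Kif20b, also not called, held CHR letters without CCAAT, and so did Kif2c, which was called higher. A link between motifs and the direction of change was not tested. The promoters of the 3 mitotic kinesins with the largest increases are shown in the direction of the gene with both motifs in capitals. They lie at chr17:33890584-33890883 (reverse strand), chr7:127042371-127042670 (reverse strand) and chr11:102925075-102925374 (reverse strand).
Kifc1: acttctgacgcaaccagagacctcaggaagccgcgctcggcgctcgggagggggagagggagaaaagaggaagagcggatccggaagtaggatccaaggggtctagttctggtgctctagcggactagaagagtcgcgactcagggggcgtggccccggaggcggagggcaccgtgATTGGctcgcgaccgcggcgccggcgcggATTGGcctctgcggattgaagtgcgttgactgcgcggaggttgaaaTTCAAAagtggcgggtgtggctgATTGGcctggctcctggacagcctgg
Kif22: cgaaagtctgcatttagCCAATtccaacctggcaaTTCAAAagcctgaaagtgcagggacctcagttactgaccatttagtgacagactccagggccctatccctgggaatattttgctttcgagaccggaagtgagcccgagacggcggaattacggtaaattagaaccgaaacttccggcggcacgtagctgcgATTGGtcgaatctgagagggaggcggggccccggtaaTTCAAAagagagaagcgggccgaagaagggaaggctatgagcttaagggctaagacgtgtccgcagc
Kif18b: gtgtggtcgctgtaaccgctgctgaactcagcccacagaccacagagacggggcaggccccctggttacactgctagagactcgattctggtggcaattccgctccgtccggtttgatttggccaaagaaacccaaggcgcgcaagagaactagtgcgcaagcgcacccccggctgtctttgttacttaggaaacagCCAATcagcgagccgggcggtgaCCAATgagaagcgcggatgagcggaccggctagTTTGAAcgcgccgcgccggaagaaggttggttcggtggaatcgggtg
In Kifc1 the CHR letters begin 1 base after the start of transcription. Its CCAAT boxes lie 74 and 45 bases before the start and 24 bases after it. In Kif22 CHR matches lie 17 and 215 bases and CCAAT boxes 54 and 233 bases before the start. In Kif18b the CHR match lies 3 bases after the start and the CCAAT boxes 53 and 30 bases before it.

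The promoters of 3 of the 14 kinesins called lower in WT31_P5IV are given in the same way. They lie at chr1:178528875-178529174, chr2:153291166-153291465 and chr1:163779333-163779632, all on the forward strand.
Kif26b: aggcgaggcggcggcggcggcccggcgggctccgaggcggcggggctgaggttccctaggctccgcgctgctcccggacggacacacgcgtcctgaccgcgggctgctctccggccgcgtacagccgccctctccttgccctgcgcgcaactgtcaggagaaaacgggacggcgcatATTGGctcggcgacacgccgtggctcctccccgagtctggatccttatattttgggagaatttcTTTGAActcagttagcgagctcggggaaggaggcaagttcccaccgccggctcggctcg
Kif3b: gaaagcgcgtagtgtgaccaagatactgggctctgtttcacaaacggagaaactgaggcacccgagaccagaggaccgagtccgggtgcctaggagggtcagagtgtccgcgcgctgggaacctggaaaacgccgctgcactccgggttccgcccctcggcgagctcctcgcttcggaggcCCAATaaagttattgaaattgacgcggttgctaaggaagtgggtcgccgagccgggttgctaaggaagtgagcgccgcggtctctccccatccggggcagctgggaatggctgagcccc
Kifap3: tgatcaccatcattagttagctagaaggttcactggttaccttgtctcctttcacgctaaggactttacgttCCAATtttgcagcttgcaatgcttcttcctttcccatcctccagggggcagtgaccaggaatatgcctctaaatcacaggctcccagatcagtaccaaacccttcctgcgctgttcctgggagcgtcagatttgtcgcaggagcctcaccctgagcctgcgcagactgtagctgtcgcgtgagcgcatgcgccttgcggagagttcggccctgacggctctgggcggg
Kif3b and Kifap3 hold a CCAAT box and no CHR letters in this window, while Kif26b holds both, with the CHR letters 9 bases before the start. The other kinesins with CHR letters outside the mitotic class were Kif1a, Kif24 and Kif27.

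Kinesin-1 is the main carrier of vesicles and organelles towards the plus end, a tetramer of heavy chains (Kif5a, Kif5b, Kif5c) and light chains (Klc1 to Klc4) that bind cargo. Its main heavy chain Kif5b and its main light chain Klc1 were both lower in WT31_P5IV. Kif5b (ENSMUSG00000006740, GRCm38 chr18:6201002-6242174, reverse strand) measured 217, 267, 257, 212 and 208 CPM in WT31, with 153, 156, 164, 159 and 152 CPM in WT31_P5IV. All WT31_P5IV libraries lay below all WT31 libraries (log2 fold change of -0.57 ± 0.066 (SE), adjusted p = 2.45e-06), and without WT31 replicates 2 and 3 the log2 fold change was -0.45 (adjusted p = 1.26e-08). Klc1 measured 136, 129.7, 133, 134 and 139 CPM in WT31, with 117, 115, 119.8, 119.7 and 124 CPM in WT31_P5IV. It was lower in every WT31_P5IV library (log2 fold change of -0.17 ± 0.034 (SE), adjusted p = 4.30e-04). Klc2 (log2 fold change of 0.10 ± 0.063, adjusted p = 0.178) and Klc4 (log2 fold change of 0.025 ± 0.070, adjusted p = 0.763) overlapped between the groups.

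Klc3, a light chain known from sperm tails, had the largest increase of all kinesins but at very low counts (ENSMUSG00000040714, GRCm38 chr7:19394437-19404104, reverse strand). It had 0 to 6 counts in WT31 and 12 to 19 counts in WT31_P5IV, and the groups did not overlap (log2 fold change of 2.52 ± 0.48 (SE), adjusted p = 2.96e-04). In 2 of the WT31 libraries it had 0 counts, which at this depth allows up to 3. Of its 31-base words 23.8% occur in Ercc2, a neighbouring DNA repair gene, which was itself higher (24.2 ± 1.61 CPM in WT31 against 32.97 ± 1.49 CPM in WT31_P5IV, log2 fold change of 0.45 ± 0.052, adjusted p = 2.34e-06). The part of Ercc2 reads in the Klc3 counts was not tested. The neuronal heavy chains Kif5a and Kif5c were too low for the fit. Kif5a had 1 to 6 counts in WT31 and 6 to 8 counts in WT31_P5IV, with CPM that did not overlap (exact two-sided permutation test, p = 0.00794, the smallest that 5 against 5 libraries can give), and Kif5c had 0 to 2 counts in WT31 and 0 to 1 counts in WT31_P5IV.

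Per transcript length, Kif5b gave 99.7% of the heavy chain TPM in WT31 and 99.4% in WT31_P5IV, and Klc1 gave 75.8% and 71.6% of the light chain TPM. The ratio of summed light chain to summed heavy chain TPM was 2.22, 1.88, 1.93, 2.37 and 2.61 in WT31 and 3.27, 3.11, 2.78, 2.99 and 3.17 in WT31_P5IV. All WT31_P5IV libraries lay above all WT31 libraries, with means of 2.20 ± 0.304 and 3.06 ± 0.187 (SD, n = 5). This is a ratio of transcripts, and protein was not measured.

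Kinesin-2 carries cargo outwards in cilia and in the cytoplasm and disperses melanosomes in frog pigment cells. It is a trimer of Kif3a with Kif3b or Kif3c and the adaptor Kifap3. The transcripts of all 4 subunits were called lower in WT31_P5IV, and 3 of them without overlap, beside 33.9% and 27.5% of all tested genes. Kif3c measured 63.9, 64.8, 65.7, 63.3 and 63.6 CPM in WT31, with 49.2, 48.9, 48.0, 45.5 and 47.2 CPM in WT31_P5IV (log2 fold change of -0.43 ± 0.034 (SE), adjusted p = 4.35e-08). Kifap3 measured 63.3, 69.9, 67.8, 59.4 and 60.5 CPM in WT31, with 48.3, 46.7, 50.3, 47.2 and 48.6 CPM in WT31_P5IV (log2 fold change of -0.41 ± 0.048 (SE), adjusted p = 2.34e-06). Kif3b measured 69.0, 75.7, 74.4, 63.0 and 63.7 CPM in WT31, with 55.6, 55.9, 57.1, 55.5 and 57.7 CPM in WT31_P5IV (log2 fold change of -0.29 ± 0.052 (SE), adjusted p = 1.36e-04). In each of these genes the highest WT31_P5IV library stayed below the lowest WT31 library. Kif3a, the subunit common to both trimers, ranged over 37.5 to 44.2 CPM in WT31, against 35.4 to 38.9 CPM in WT31_P5IV and overlapped (log2 fold change of -0.15 ± 0.052 (SE), adjusted p = 0.0181). Without WT31 replicates 2 and 3 the fall of Kif3a was no longer called, at -0.10 (adjusted p = 0.072), while Kif3c stayed at -0.43 (adjusted p = 2.54e-08), Kifap3 at -0.36 (adjusted p = 3.86e-07) and Kif3b at -0.23 (adjusted p = 8.25e-05). Of the 31-base words of Kif3c 40.2% occur in other genes, mostly in 1110002L01Rik, which was also lower (log2 fold change of -0.35 ± 0.11, adjusted p = 0.0113). Kif17, the homodimeric kinesin-2 of cilia and dendrites, had 0 to 3 counts in WT31 and 0 to 3 counts in WT31_P5IV and was not tested.

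**Figure D3:**
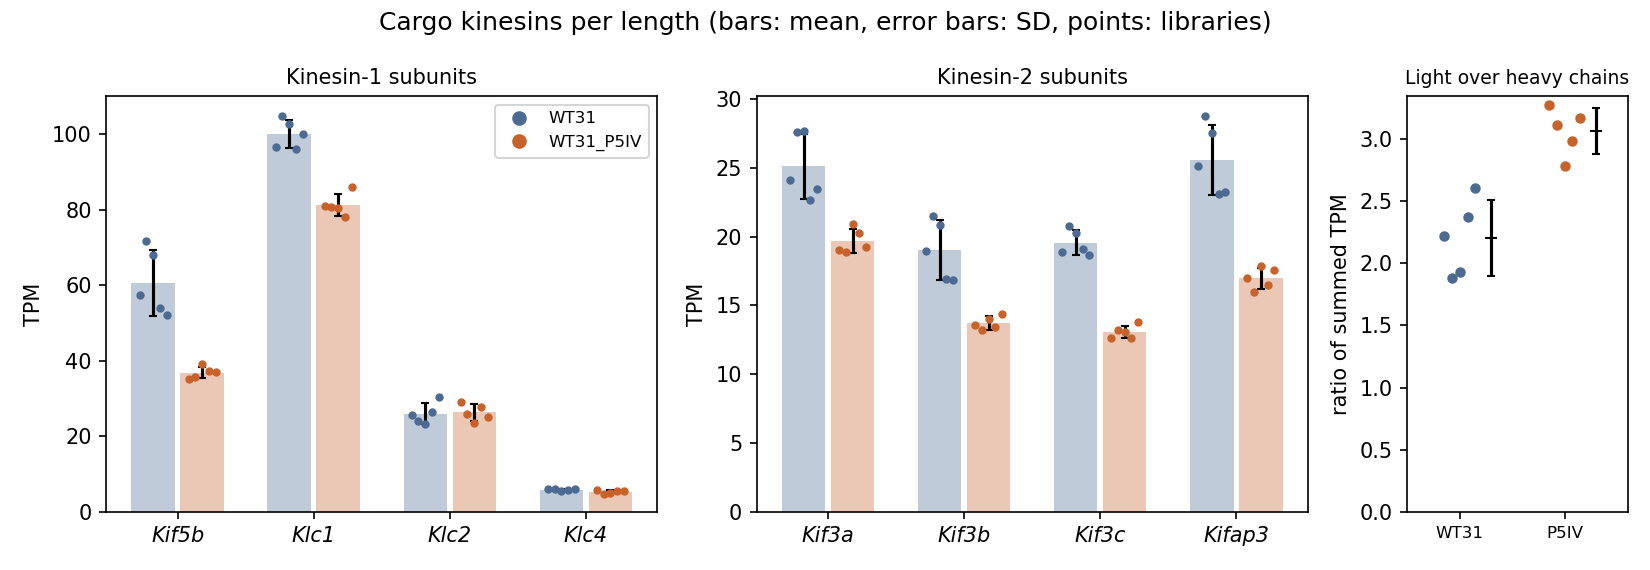
TPM (y axis, from 0) of the kinesin-1 subunits (left) and kinesin-2 subunits (middle) as mean bars with SD and 1 point per library, and the ratio of summed light to summed heavy chain TPM (right). Kif5b fell from 60.7 to 36.9 TPM and Klc1 from 100 to 81.2 TPM, and the ratio is higher in each WT31_P5IV library.

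The 2 members of the kinesin-11 class, Kif26a and Kif26b, had the largest decreases. They lack measurable ATPase activity and are known as regulators of signaling and cell adhesion rather than as transporters. Kif26a (ENSMUSG00000021294, GRCm38 chr12:112146208-112181747, forward strand) had 96 to 131 counts in WT31 and 20 to 33 counts in WT31_P5IV, or 3.76, 4.39, 5.14, 3.85 and 4.55 CPM in WT31, with 1.09, 1.24, 0.804, 1.35 and 1.36 CPM in WT31_P5IV. Its groups lay far apart at a low level (log2 fold change of -1.89 ± 0.15 (SE), adjusted p = 3.41e-08, or 3.71-fold lower). Kif26b (ENSMUSG00000026494, GRCm38 chr1:178529125-178939200, forward strand), a cell polarity gene downstream of Wnt5a and Ror signaling, measured 284, 331, 329.8, 279.7 and 271 CPM in WT31, with 165, 174, 168, 154 and 156 CPM in WT31_P5IV. Its level in WT31_P5IV was 1.83-fold lower (log2 fold change of -0.87 ± 0.060 (SE), adjusted p = 9.80e-09), and without WT31 replicates 2 and 3 the log2 fold change was -0.78 (adjusted p = 8.09e-11).

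Kinesin-3 motors are fast carriers of vesicles and endosomes. Kif13a, which moves recycling endosomes towards maturing melanosomes in melanocytes, measured 110.4, 125, 131, 115 and 114 CPM in WT31, with 86.8, 83.0, 89.8, 84.5 and 84.8 CPM in WT31_P5IV. It was lower in every WT31_P5IV library (log2 fold change of -0.47 ± 0.048 (SE), adjusted p = 5.77e-07). Kif16b, a motor of early endosomes, ranged over 44.2 to 55.8 CPM in WT31, against 37.8 to 43.6 CPM in WT31_P5IV (log2 fold change of -0.30 ± 0.059 (SE), adjusted p = 4.29e-04), and Kif13b, a motor that binds the Dlg1 scaffold, over 28.7 to 39.1 CPM in WT31, against 26.7 to 29.6 CPM in WT31_P5IV (log2 fold change of -0.31 ± 0.074 (SE), adjusted p = 0.00172). Kif16b did not overlap and Kif13b did. The kinesin-3 transcripts Kif1b (log2 fold change of 0.065 ± 0.074, adjusted p = 0.455) and Kif1c (log2 fold change of -0.0095 ± 0.040, adjusted p = 0.847), which carry mitochondria, lysosomes and vesicles, overlapped and were not called. Kif1b was called higher without WT31 replicates 2 and 3, at 0.19 (adjusted p = 0.00112), and Kif1c lower on log2(TPM + 0.1) (-0.16, adjusted p = 0.0132).

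Kif21a and Kif21b, kinesin-4 motors that restrain microtubule growth, were both lower without overlap. Kif21a ranged over 50.3 to 61.3 CPM in WT31, against 34.9 to 40.2 CPM in WT31_P5IV (log2 fold change of -0.53 ± 0.062 (SE), adjusted p = 2.51e-06) and Kif21b over 26.6 to 31.1 CPM in WT31, against 19.0 to 21.6 CPM in WT31_P5IV (log2 fold change of -0.49 ± 0.055 (SE), adjusted p = 1.55e-06). Kif7, the kinesin-4 that organises the ciliary tip in hedgehog signaling, overlapped at a low level (log2 fold change of -0.020 ± 0.079, adjusted p = 0.839). Of the kinesin-13 motors outside the mitotic class, Kif2a, a microtubule depolymerase that also acts at spindle poles, ranged over 68.9 to 83.6 CPM in WT31, against 54.6 to 62.2 CPM in WT31_P5IV and was lower without overlap (log2 fold change of -0.37 ± 0.057 (SE), adjusted p = 3.88e-05). Kif24, which works on centrioles and cilia, was not called (log2 fold change of 0.029 ± 0.067, adjusted p = 0.718), nor was Kif9, a motor of motile cilia (log2 fold change of 0.16 ± 0.31, adjusted p = 0.662). Kif2a shares 22.1% of its words with other genes, mostly Dimt1, which was not called (log2 fold change of -0.11 ± 0.047, adjusted p = 0.0616).

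Only 3 kinesins outside the mitotic class were higher in WT31_P5IV, and apart from the light chain Klc3 they were both of the kinesin-14 class. Kifc2 (ENSMUSG00000004187, GRCm38 chr15:76659858-76668196, forward strand) measured 3.02, 2.95, 3.02, 2.52 and 2.77 CPM in WT31, with 6.10, 5.23, 4.75, 4.93 and 5.33 CPM in WT31_P5IV. Each WT31_P5IV library exceeded each WT31 library at this low level (log2 fold change of 0.88 ± 0.10 (SE), adjusted p = 1.18e-06, or 1.84-fold higher). Kifc3, a minus-end motor at adherens junctions and the Golgi, ranged over 55.2 to 62.1 CPM in WT31, against 63.9 to 69.3 CPM in WT31_P5IV (log2 fold change of 0.18 ± 0.040 (SE), adjusted p = 9.13e-04), and on log2(TPM + 0.1) it was not called (0.058, adjusted p = 0.245), nor in limma voom without scaling or filter (0.12, adjusted p = 0.0509). Of the words of Kifc3 23.3% occur in other genes, and the part of their reads in its counts was not tested.

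**Figure D4:**
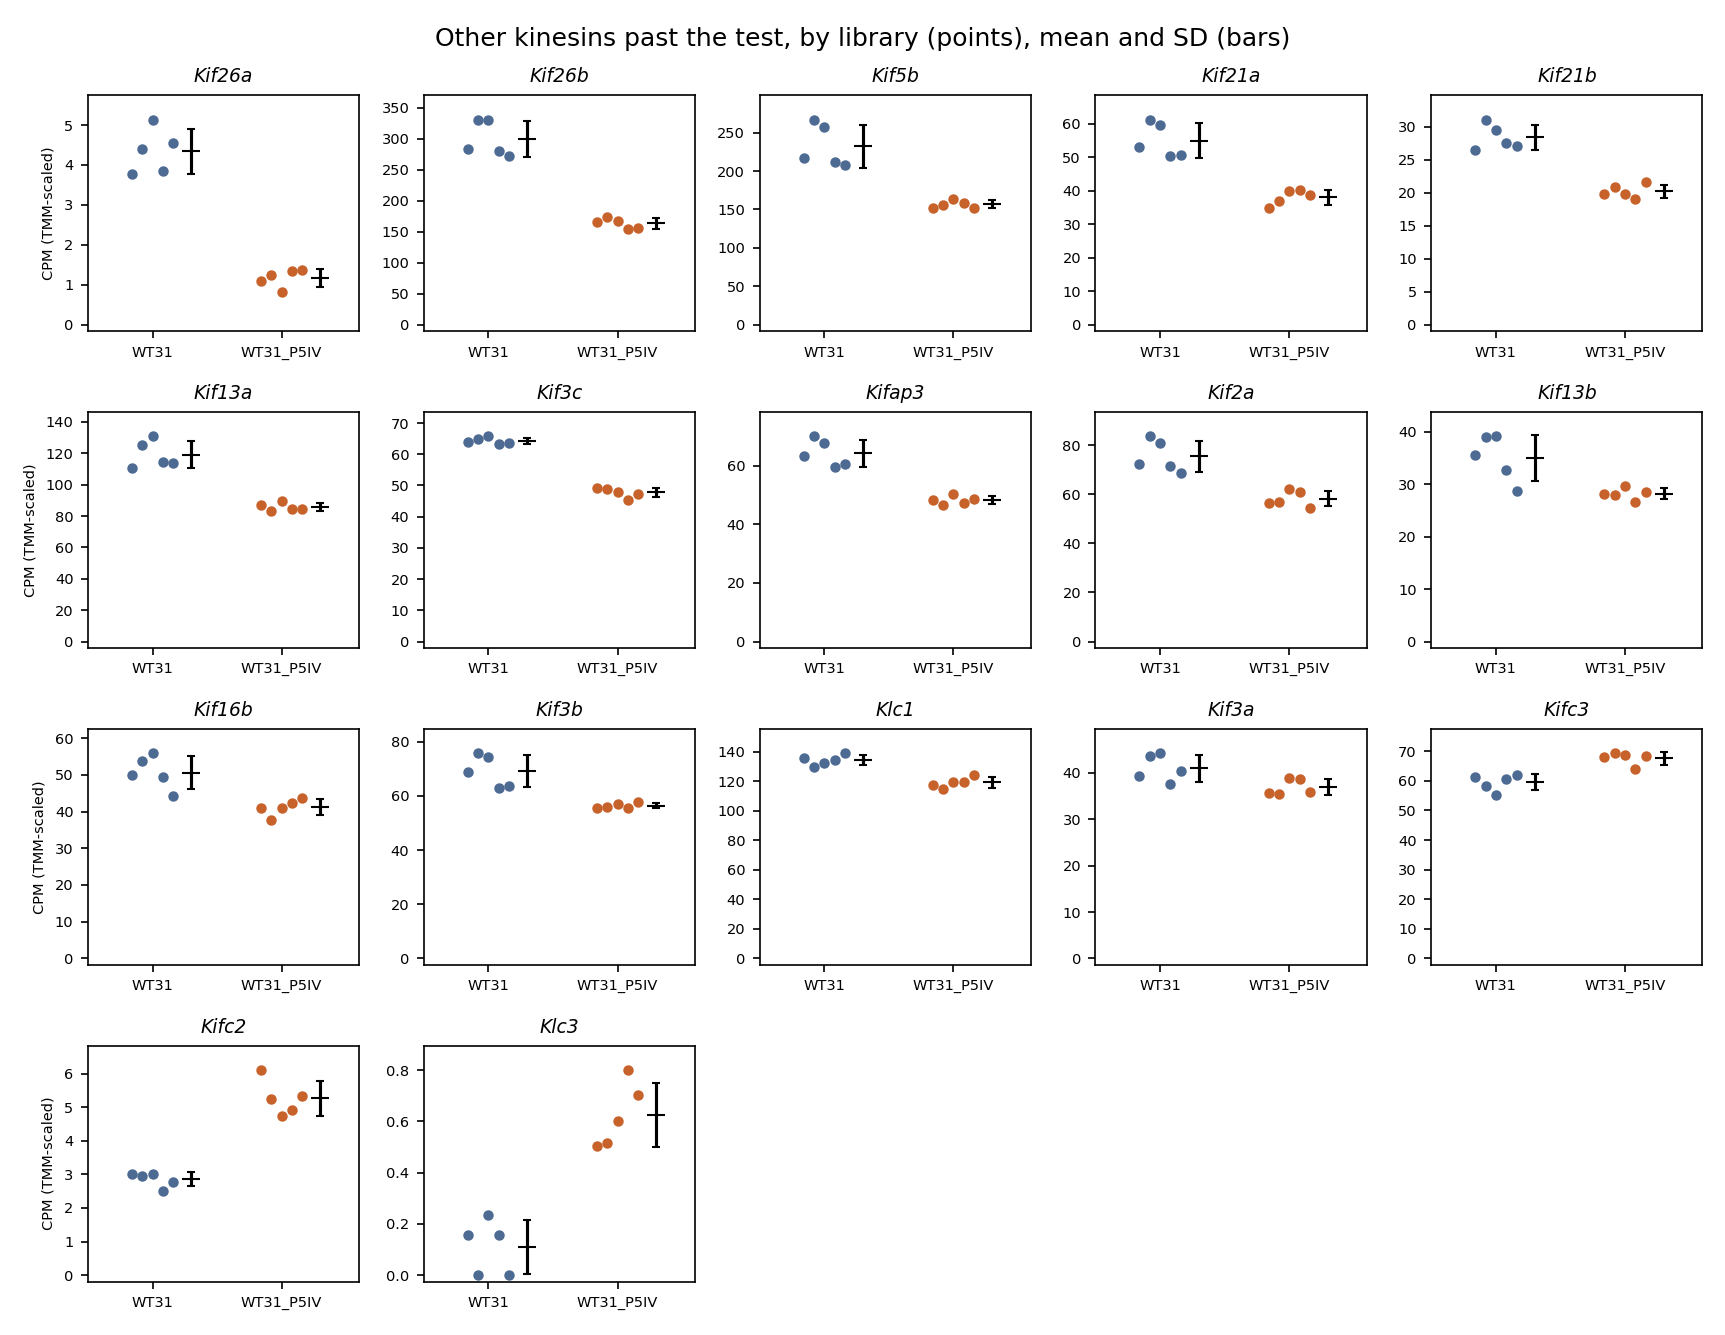
CPM scaled by TMM (y axis, from 0) of the 17 other kinesins that passed the test, in the 5 WT31 and 5 WT31_P5IV libraries, with mean and SD. Kif13b and Kif3a overlap between the groups, and the other 15 do not.

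WT31 replicates 2 and 3 were often the highest libraries of their group for these genes. Replicate 2 was highest for 10 and replicate 3 for 8 of the 24 tested kinesins outside the mitotic class. Without both of them 13 other kinesins were still called lower, the exception being Kif3a. Transcript length was also compared between the classes. When all tested genes were divided into 5 equal parts by inferred transcript length, 12 of these 24 kinesins and 3 of the 12 mitotic ones fell into the longest part, in which 40.7% of genes were called lower. The next longest part held 5 of these 24 kinesins and 5 of the 12 mitotic ones, and 38.1% of its genes were called lower. In the shortest part 23.02% were called lower. The part of length in the decrease was not tested.

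The 10 kinesins that were too low for the fit were all outside the mitotic class. Kif12 and Kif2b had 0 counts in all libraries. Kif1a, the neuronal carrier of synaptic vesicle precursors, had 2 to 7 counts in WT31 and 0 to 3 counts in WT31_P5IV (exact two-sided permutation test of CPM, p = 0.0397). Kif27, a kinesin of motile cilia, had 0 to 3 counts in WT31 and 0 to 9 counts in WT31_P5IV, with the highest count in a single library. Kif19a had 0 to 1 counts in WT31 and 0 to 2 counts in WT31_P5IV, Kif28 had 0 to 1 counts in WT31 and 0 to 1 counts in WT31_P5IV and Kif6 had 0 to 1 counts in WT31 and 0 to 1 counts in WT31_P5IV. Apart from Kif5a and Kif1a, those with a count gave unadjusted p-values of 0.167 (Kif5c) to 0.897 (Kif27) in the exact permutation test. Kif17 and Kif5c were given above, and none of these values allows a statement beyond low or undetected at this depth.

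Per transcript length, kinesin TPM summed to 1128 ± 59.6 in WT31 and 1007 ± 14.4 in WT31_P5IV (SD, n = 5). The 12 mitotic kinesins together gave 539, 576, 567, 551 and 530.1 TPM in WT31 and 574, 571, 578, 563 and 562 TPM in WT31_P5IV, which overlapped. The 34 others summed to 553, 627, 614, 538 and 543 TPM in WT31 and 441, 425, 449.8, 431 and 440.0 TPM in WT31_P5IV, which did not overlap. The mitotic share of kinesin TPM was 47.9 to 50.6% in WT31 and 56.1 to 57.4% in WT31_P5IV. In WT31 the highest levels were those of Klc1 (100 ± 3.73 TPM), Kif20a (98.0 ± 2.11 TPM) and Kif23 (96.5 ± 4.92 TPM), whose ranges overlapped from neighbour to neighbour, and Kif22 followed at a distance with 61.5 ± 1.30 TPM. In WT31_P5IV the order began with Kif20a (93.0 ± 2.1 TPM) and Kif23 (91.6 ± 1.48 TPM), which overlapped, then Klc1 (81.2 ± 2.89 TPM) and Kifc1 (74.1 ± 2.44 TPM), each apart from the one before it. Kif5b moved from rank 5 to rank 11 and Kif26b from rank 11 to rank 20.

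Counts and TPM together give the mean length of the transcripts that kallisto assigned to a gene, which depends on the mix of isoforms. Of 34 kinesins with at least 10 counts in every library 9 differed at an adjusted p below 0.05, beside 34.9% of all genes tested, and 2 of these differed by more than 10%, beside 3.23%. Kif15 was shorter in WT31_P5IV by 17.0% (limma on log2 length, log2 difference -0.27 ± 0.062, adjusted p = 0.00816), and Kif20b by 15.3% (-0.24 ± 0.073, adjusted p = 0.0315). In both genes single libraries of the groups overlapped. The remaining 7 gave values higher by between 1.25% (Kif11) and 3.87% (Kif18a). Among them was Kif3b, higher by 1.31%, which has 1 transcript in GENCODE, so differences of this size are not read as a change of isoforms.

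The partners of mitotic kinesins that were called were higher with 1 exception. Of genes for spindle, chromosomal passenger and cytokinesis proteins, 10 of 21 tested genes were higher and 1 lower (median log2 fold change 0.12), beside 34.6% and 33.9% of all tested genes, which are also the shares to set the next lists against. Cit, the citron kinase that Kif14 recruits to the midbody, had the largest change (log2 fold change of 0.61 ± 0.044, adjusted p = 1.52e-08). Cenpe, a kinetochore kinesin that the symbol rule does not cover, was higher with overlap (log2 fold change of 0.30 ± 0.089, adjusted p = 0.00849), while the mitotic kinases Aurkb (log2 fold change of 0.10 ± 0.044, adjusted p = 0.0566) and Plk1 (log2 fold change of -0.043 ± 0.055, adjusted p = 0.503) were not called. Both calls depended on the setting, since on log2(TPM + 0.1) Aurkb was called higher (0.11, adjusted p = 0.0271) and Plk1 lower (-0.21, adjusted p = 0.00332), and Aurkb was called in 5 and Plk1 in 3 of 21 alternatives. Of the regulators of mitotic genes, 5 of 15 tested genes were higher and 6 lower (median log2 fold change -0.10). Foxm1, an activator of genes of the G2 and M phases, was the one with the largest change (log2 fold change of 0.55 ± 0.032, adjusted p = 1.60e-09), and Mybl2, its partner on CHR promoters, measured 54.3 ± 1.49 CPM in WT31 against 76.9 ± 2.89 CPM in WT31_P5IV (log2 fold change of 0.50 ± 0.037, adjusted p = 2.01e-08). Of the 6 regulators called lower, Rbl2 had a log2 fold change of -0.28 and Tfdp1 of -0.19. The MuvB subunits Rbbp4 and Lin54 were at -0.15 and -0.13, and the NF-Y subunits Nfyb and Nfyc at -0.15 and -0.14. Of S phase and proliferation genes, 11 of 20 tested genes were higher and 3 lower (median log2 fold change 0.10). Mki67, the proliferation antigen Ki-67, measured 479 ± 98.5 CPM in WT31 against 834 ± 66.5 CPM in WT31_P5IV (log2 fold change of 0.80 ± 0.11, adjusted p = 1.29e-05), whereas Top2a gave a log2 fold change of 0.025 ± 0.053, adjusted p = 0.69.

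Of cargo adaptors and regulators of kinesins, 10 of 23 tested genes were higher and 8 lower (median log2 fold change 0.057), shares not far from the 34.6% and 33.9% of all tested genes. Past an absolute log2 fold change of 1 were Map7, a microtubule protein that recruits kinesin-1 (2.14 ± 0.331 CPM in WT31 against 5.09 ± 0.451 CPM in WT31_P5IV, log2 fold change of 1.25 ± 0.12, adjusted p = 2.14e-07), Clstn1, which links kinesin-1 light chains to vesicles (169.6 ± 2.56 CPM in WT31 against 363 ± 20.96 CPM in WT31_P5IV, log2 fold change of 1.096 ± 0.041, adjusted p = 1.51e-11), and Tanc2, an adaptor of Kif1a (17.2 ± 2.81 CPM in WT31 against 4.58 ± 0.546 CPM in WT31_P5IV, log2 fold change of -1.91 ± 0.12, adjusted p = 2.57e-09). Related adaptors of kinesin-1 went both ways. Of the mitochondrial adaptors Trak1 was higher with overlap (log2 fold change of 0.14 ± 0.043, adjusted p = 0.00984) and Trak2 lower (log2 fold change of -0.73 ± 0.046, adjusted p = 3.81e-09), and of the JIP scaffolds Mapk8ip3 was higher (log2 fold change of 0.30 ± 0.035, adjusted p = 2.54e-06) and Mapk8ip1 lower (log2 fold change of -0.27 ± 0.044, adjusted p = 7.85e-05). Kif1bp, which binds and restrains several kinesins, was lower (log2 fold change of -0.36 ± 0.046, adjusted p = 6.55e-06). Of the opposing motor, cytoplasmic dynein with dynactin, 6 of 31 tested genes were higher and 19 lower (median log2 fold change -0.18), beside the same 34.6% and 33.9%. Its adaptor Hook2 had the largest change (log2 fold change of 0.98 ± 0.082, adjusted p = 7.42e-08), and the dynein heavy chain Dync1h1 was also higher (log2 fold change of 0.89 ± 0.093, adjusted p = 8.24e-07) although most of its smaller chains were lower.

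Of the proteins of intraflagellar transport, the trains that kinesin-2 pulls in cilia, 5 of 25 tested genes were higher and 9 lower (median log2 fold change -0.083), where 33.9% of all tested genes were lower and 34.6% higher. Ift74 had the largest change (log2 fold change of -0.55 ± 0.072, adjusted p = 7.62e-06). Of the 8 hedgehog genes that work with Kif7, 4 could be tested, of which 2 were higher and 1 lower, the largest change being that of Smo, the signal transducer of the pathway (log2 fold change of 0.73 ± 0.035, adjusted p = 1.81e-10). These lists are descriptions beside the kinesins, and no list was tested as a set.

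**Figure D5:**
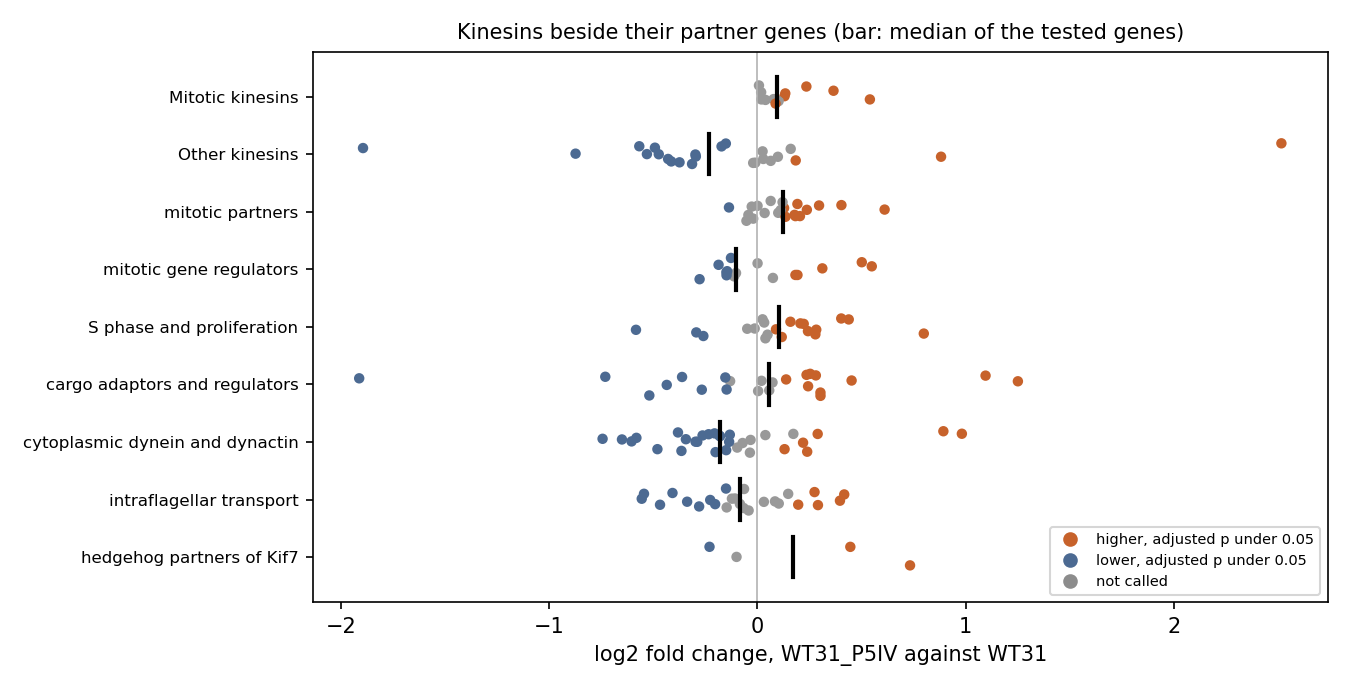
Log2 fold change of WT31_P5IV against WT31 (x axis) for the tested genes of each class, 1 point per gene, with the median as a black bar and colour for the test's call. The mitotic kinesins and their partners lie near 0, with medians of 0.10 and 0.12, while the other kinesins and dynein have medians of -0.23 and -0.18.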

How the data were processed

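RNA was sequenced from cultured WT31 and WT31_P5IV cells, 5 libraries each. Replicate numbers are those of the sample titles, and 3 WT31 libraries carry other numbers in their descriptions. The authors trimmed reads with Trim Galore 0.6.4 and deposited estimated counts made with kallisto against GRCm38.p6 and summed per gene. The authors' TPM values were made and summed in the same way. TPM divide by transcript length and by the total, so a rise of a few abundant transcripts lowers all others. The strand setting and the annotation release are not given in the sources used here. Symbols and positions came from GENCODE M21, matched without the version suffix of the identifier (55144 of 55385 found).

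Estimated counts were rounded to whole numbers. The 13620 genes kept by filterByExpr were scaled by TMM and compared with the quasi-likelihood test of edgeR 4.0.16 (R 4.3.3), and p-values were adjusted after Benjamini and Hochberg across these genes. Fold changes carry no prior count, and each SE is the absolute log2 fold change over the square root of F. Inferred length is counts over TPM, centred on each library's median, and was tested with limma 3.58.1. Kinesins too low for the fit but with at least 1 count were compared on CPM by exact permutation in scipy 1.17.1, and these p-values were not adjusted. Adjusted p-values are those of edgeR unless named otherwise. Totals were 24255389 to 25750639 counts per library. A count of 0 allows up to 3 counts, which covers counting error only.

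The kinesins, their division and the partner and marker lists were chosen with earlier results of these data known. Named genes were all mitotic, kinesin-1 and kinesin-2 genes, others past the test at the extremes or past a log2 fold change of 1, genes with a length difference over 10%, genes too low to test, and from each list the largest change, those past 1 and Mki67, Top2a, Aurkb, Plk1, Foxm1 and Cenpe. Mybl2 and the 6 lower regulators of mitotic genes were named after their values were seen. So were Dync1h1, Kif1bp, Trak1, Trak2, Mapk8ip1, Mapk8ip3, Cd68, Acta2 and the remaining kinesins. Words of 31 bases shared with other genes were counted in GENCODE transcripts. Alternatives were DESeq2 1.42.0, limma voom with TMM and without scaling or filter, upper-quartile scaling, filters of 1 count and of 10 counts per library, a block for the replicate number, log2(TPM + 0.1) and log2(TPM + 1), and each library left out. Leaving out 2 WT31 libraries or the mitochondrially encoded genes was chosen after seeing the data. The fits were tested on simulated data.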

Additional observations from a re-analysis of the deposited data

Results flagged for a closer look

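In 5 of 88 groups of libraries a single library stood apart from the other 4 by Dixon's criterion (a gap over 0.71 of the range), and chance gives about 1 in 20. Kif20b was at 77.3 CPM in WT31_P5IV replicate 3, beside 69.1 to 70.5 CPM in the others. Kifc3 was at 63.9 CPM in WT31_P5IV replicate 4, beside 68.0 to 69.3 CPM, still above the highest WT31 library. Kif27 was at 0.372 CPM in WT31_P5IV replicate 5, which is 9 counts, beside 0 to 0.0402 CPM. Kif28 in WT31 replicate 3 (0.0392 CPM) and Kif5c in WT31_P5IV replicate 2 (0.0429 CPM) stood apart by a single count, with 0 in the other libraries of the group.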

How the results depend on the processing

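Of the 14 kinesins called lower, 13 kept their direction and their call in all 21 alternatives, the exception being Kif3a, and of those called higher Kifc1, Kif22, Kifc2 and Klc3 did so in all that tested them. The log2 fold change of Kif26a was -0.66 on log2(TPM + 1), where the pseudocount shrinks low genes, and on log2(TPM + 0.1) Kif3a was at -0.35, Klc1 at -0.30, Kif3b at -0.46 and Kif13a at -0.71, each over 1.5 times the size given above. Changes smaller by as much on log2(TPM + 1) were Klc3 0.50, Kifc2 0.56, Kif22 0.23, Map7 0.67, Hook2 0.59, Tanc2 -1.24. Klc3 was there no longer the largest increase of the kinesins. The number called lower was 13 to 16 and it stayed at 14 when any single library was dropped. Without scaling or filter in limma voom 5 kinesins were called higher, of them 3 mitotic, and the mitotic median was 0.028. Without a filter beyond 1 count 3 mitotic kinesins were called higher and the median was 0.040. On log2(TPM + 0.1) and log2(TPM + 1) 5 kinesins were called higher on each scale, of them 3 mitotic, with mitotic medians of -0.026 and -0.024 and medians of the others of -0.35 and -0.33. On log2(TPM + 1) 1 mitotic kinesin was called lower and 0 kinesins reached a log2 fold change of 1, and under a minimum of 10 counts per library 1 did, Kif26a, since Klc3 was then not tested. In limma voom without scaling or filter and on log2(TPM + 0.1) 3 did, on the latter with Kif26b at -1.01. Upper-quartile scaling gave a mitotic median of 0.12. With a library left out, 4 to 6 mitotic and 7 to 9 of all kinesins were called higher, 0 mitotic ones lower and 2 passed the fold filter, and the medians were 0.057 to 0.11 for mitotic and -0.26 to -0.22 for other kinesins, the lowest mitotic median being that without WT31 replicate 5. The number of kinesins with a changed inferred length was 8 to 10. The cause of these differences was not tested, except that TPM divide by length and by the total of all transcripts.

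The direction turned in genes of small change, each given with its log2 fold change. In limma voom without scaling or filter these were Kif11 -0.049, Kif20b -0.057, Kif23 -0.030, Kif4 -0.048, Kif24 -0.042, Klc4 -0.048, Top2a -0.042. Without a filter beyond 1 count they were Kif11 -0.037, Kif20b -0.047, Kif23 -0.016, Kif4 -0.036, Kif24 -0.026, Klc4 -0.030, Top2a -0.030. On log2(TPM + 0.1) they were Kif11 -0.15, Kif14 -0.051, Kif18a -0.13, Kif20a -0.076, Kif23 -0.073, Kif2c -0.0011, Kif4 -0.18, Kif1b -0.10, Kif24 -0.032, Klc4 -0.15, Top2a -0.044, and on log2(TPM + 1) Kif11 -0.15, Kif14 -0.046, Kif18a -0.12, Kif20a -0.075, Kif23 -0.073, Kif2c -0.0011, Kif4 -0.18, Kif1b -0.10, Kif24 -0.029, Klc4 -0.13, Top2a -0.044. Upper-quartile scaling turned Kif1c 0.019, Kif7 0.0090. The alternatives chosen after seeing the data turned Kif9 -0.086, Klc4 -0.026 (WT31 replicates 2 and 3 left out together) and Kif20b -0.0011 (mitochondrially encoded genes left out). With a library left out the ranges were Kif20b -0.041 to 0.041, Kif24 -0.012 to 0.053, Kif4 -0.027 to 0.037, Kif11 -0.023 to 0.049, Kif7 -0.080 to 0.017, Klc4 -0.017 to 0.057, Kif1c -0.033 to 0.011, Kif9 -0.060 to 0.31, Top2a -0.026 to 0.053.

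With the replicate number as a block, 5 mitotic kinesins were called higher, 14 kinesins lower and 8 changed in inferred length, and only Kif20a lost its call. Deviations of libraries with the same number correlated by -0.096 to 0.178, so the replicate block pairs libraries that share a number only, and the call lost under it is not a weaker effect. Kinesins with a few counts per library, such as Klc3 and Kif5a, are limited by depth.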
